A study of Bos taurus with 10 samples.

Results

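Receptors for the hormones that act on the corpus luteum were followed in cattle (Bos taurus), through the transcripts of 10 genes chosen by name: LHCGR, FSHR, PRLR, GHR, ESR1, ESR2, PGR, PGRMC1, PGRMC2 and INSR. All 10 were measured, by 12 probesets (sets of probes read as 1 value) out of 26773 on the array and among 18010 genes with a probeset of their own. ESR1 and PGR had 2 probesets each, and the brighter one, by its mean over the 10 arrays, was used. The corpora lutea came from cows supplemented with selenium in different forms and were taken on cycle day 7, when the gland is young. The labels call the groups ISe and MIX, with 5 samples in each, and give no breed, age or selenium dose. RNA of frozen luteal tissue from each sample was read on 1 single-colour whole-transcript array, and no group without selenium was analysed here. Whether each gland came from its own cow is not stated, and the p-values then cover only the spread among these arrays.

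The corpus luteum forms from the wall of the ovulated follicle and secretes progesterone. Luteinizing hormone is its main support in cattle: it binds LHCGR, a receptor of the luteal cell membrane that couples to G proteins and raises cyclic AMP. Its close relative FSHR binds follicle-stimulating hormone, acts in the granulosa cells of the follicle and is lost as these cells become luteal cells. PRLR and GHR are single-pass cytokine receptors for prolactin and growth hormone that signal through JAK2 and STAT5, and INSR is the insulin receptor, a tyrosine kinase. ESR1, ESR2 and PGR are nuclear receptors that bind estradiol or progesterone and control transcription. PGRMC1 and PGRMC2 are heme-binding membrane proteins of another family that have been linked to rapid effects of progesterone.

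The values are on a log2 scale, with array medians between 5.99 and 6.04 and pairwise correlations between arrays of 0.980 to 0.990. In a principal component analysis MIX 8 lay far from the rest on the first component, at 32.8, and MIX 1 on the second, at -26.6. Results that rest on these arrays are also given without them. Markers of steroidogenic luteal cells were bright, with CYP11A1, the side-chain cleavage enzyme, at 12.99 in MIX and 13.01 in ISe and oxytocin (OXT), a peptide of large luteal cells, at 12.96 and 12.93. Of the 9 measured, 8 lay above the median probeset, and STAR was not analysed here. So did 12 of 12 endothelial, 8 of 8 fibroblast, 8 of 8 pericyte and smooth muscle and 9 of 11 macrophage markers. Brightness above the median therefore does not single out luteal cells. Markers of T and NK cells had 1 of 12 above it and epithelial markers 0 of 7.

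The form of selenium was not accompanied by a called difference in any of the 10 receptor genes. With limma's moderated test and Benjamini-Hochberg adjustment over 19145 probesets, 0 members passed an adjusted p of 0.05, with adjusted p-values from 0.941 to 0.999, and 0% of all probesets passed. At an unadjusted p under 0.05 there were 0 members as well, against 4.79% of all probesets, and the same fit without moderation also gave 0. The groups overlapped for all 10 members, while 0.642% of all probesets had groups that did not overlap. The 95% intervals of the fold change (MIX over ISe) reached down to 0.68 for LHCGR and up to 3.25 for PRLR. Means were higher in MIX for 4 members and lower for 6, where 50.4% of all probesets were higher on average in MIX. The median log2 difference of the members was -0.03, against 0.001 over all probesets. For 4 members, GHR, ESR1, PGRMC1 and PGRMC2, the 95% interval lay inside 0.8 to 1.25, a range that held the intervals of 60.5% of all probesets.

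**Figure D1:**
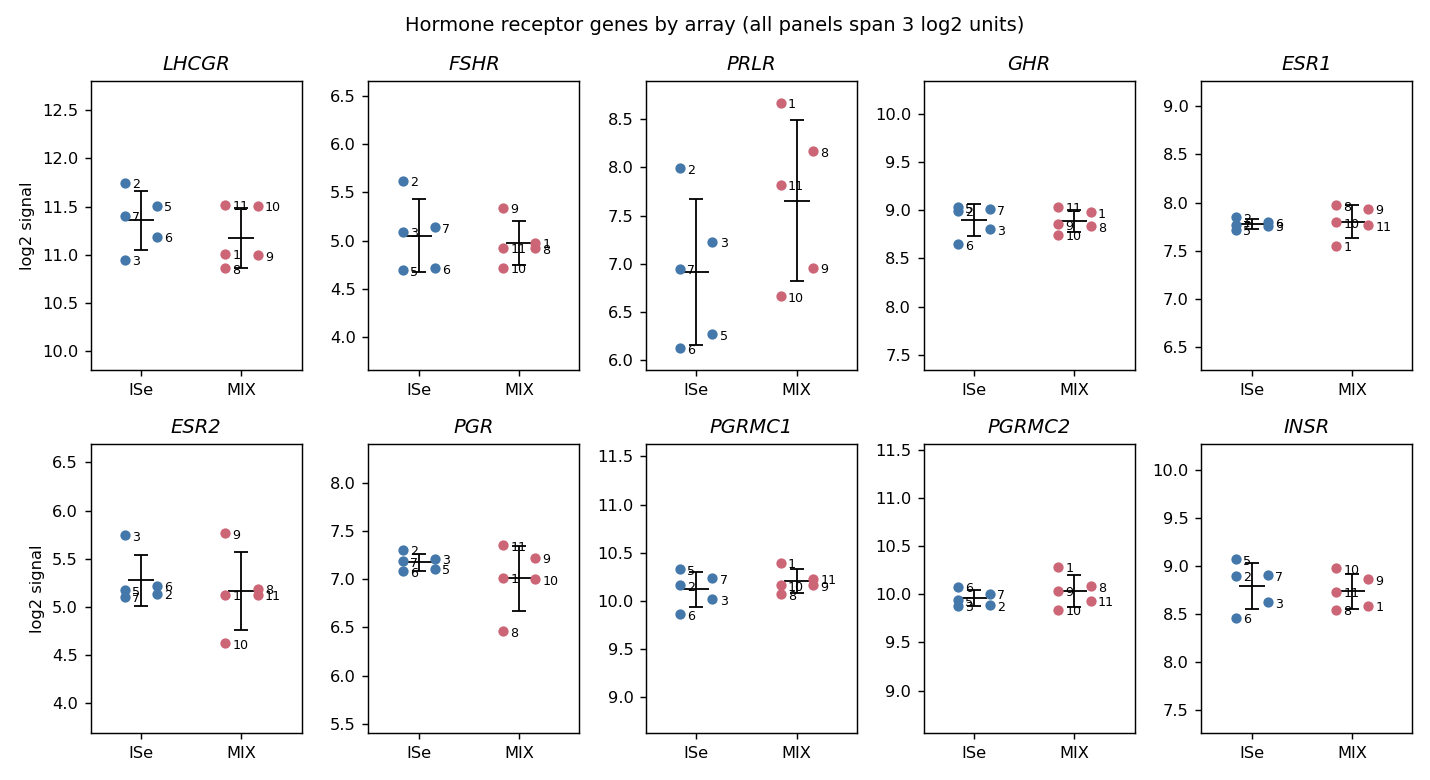
Log2 signal (vertical axes, each spanning the same 3 log2 units) of the 10 receptor genes in the 5 ISe and 5 MIX arrays. Points are arrays with their sample numbers, and bars are the group mean and SD. PRLR ranges from 6.12 to 8.67, whereas GHR stays between 8.65 and 9.03.

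LHCGR, through which luteinizing hormone sustains progesterone secretion, gave a bright signal in every gland, above 99.2% of the probesets tested. In ISe it read 11.74 in ISe 2, 10.95 in ISe 3, 11.50 in ISe 5, 11.18 in ISe 6 and 11.40 in ISe 7. In MIX it read 11.01 in MIX 1, 10.86 in MIX 8, 10.99 in MIX 9, 11.51 in MIX 10 and 11.52 in MIX 11. Thus 3 MIX glands lay at the low end beside ISe 3, and the other 2 lay among the higher ISe glands. MIX averaged 11.18 ± 0.31 (SD, n = 5) and ISe 11.36 ± 0.30 (SD, n = 5), a log2 difference of -0.18 ± 0.17 (SE) with an unadjusted limma p of 0.322. An exact permutation test of the means, two-sided, gave p = 0.373; here 5 against 5 arrays allow a smallest p of 0.00794.

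The spread of LHCGR was large for so bright a gene. Its SD over the 10 arrays was 0.31, and the lowest and highest gland differed 1.84-fold. Among the 240 probesets whose mean lay within 0.5 log2 of it, the median SD was 0.095 and 6 had a larger SD than LHCGR. The difference between the selenium groups was smaller than this spread, and without MIX 1 and MIX 8 together it was -0.016.

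FSHR, the follicular receptor, had a dim probeset at 5.01, above 26.2% of the probesets tested and below the array medians. It ran from 4.69 to 5.62 in ISe, with a median of 5.09, and from 4.72 to 5.34 in MIX, with a median of 4.93. The log2 difference was -0.07 ± 0.17 (SE). ISe 2 held the highest value of both gonadotropin receptors. LHCGR and FSHR lie on the same chromosome, chromosome 11 in the assembly ARS-UCD2.0. Across the 10 arrays they had a Pearson r of 0.12 (permutation p = 0.749, adjusted over 45 pairs of members 0.868) and a Spearman rho of 0.006. Without ISe 2 and MIX 8 their r was -0.57. Of 9 markers of the follicle, 5 lay above the median probeset, which any set of genes would do about as often. CYP19A1, the aromatase that makes estradiol, was among them, at 7.13 in MIX and 7.16 in ISe.

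PRLR, the prolactin receptor, varied most widely of the 10 genes and had the largest difference between the group means. In ISe it read 7.99 in ISe 2, 7.23 in ISe 3, 6.27 in ISe 5, 6.12 in ISe 6 and 6.95 in ISe 7. In MIX it read 8.67 in MIX 1, 8.17 in MIX 8, 6.96 in MIX 9, 6.66 in MIX 10 and 7.82 in MIX 11. MIX 1 and MIX 8, the arrays that stand apart, lay above every ISe gland, and the other 3 MIX glands lay within the ISe range. MIX averaged 7.66 ± 0.83 (SD, n = 5) and ISe 6.91 ± 0.76 (SD, n = 5). This is a 1.67-fold difference, with a 95% interval from 0.86 to 3.25, an unadjusted limma p of 0.114 and an adjusted p of 0.941. The exact permutation test, two-sided, gave p = 0.175.

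The size of that difference depended on which glands were included. The log2 difference of PRLR was 0.74 ± 0.43 (SE) over all arrays and 0.24 ± 0.43 without MIX 1 and MIX 8 together. Those 2 arrays hold the highest PRLR values, so leaving them out had to lower the difference and is no test of it. With single arrays left out the log2 difference ran from 0.49 without MIX 1 to 1.01 without ISe 2. The unadjusted limma p was 0.0329 without ISe 2 and 0.0408 without MIX 10, with adjusted p-values of 0.95 and 0.909.

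Between glands, PRLR differed 5.83-fold from the lowest to the highest, ISe 6 to MIX 1. Its SD of 0.85 log2 was exceeded by 48 of the 19145 probesets tested, and by 4 of the 3136 whose mean lay within 0.5 log2 of it. Both groups spread alike, with 1.87 log2 between the lowest and highest ISe gland and 2.00 between those of MIX. The prolactin receptor has a long and a short form in cattle, which a single value per gene cannot tell apart. In whole tissue, fewer cells that carry a transcript and less of the transcript per cell cannot be told apart either.

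**Figure D2:**
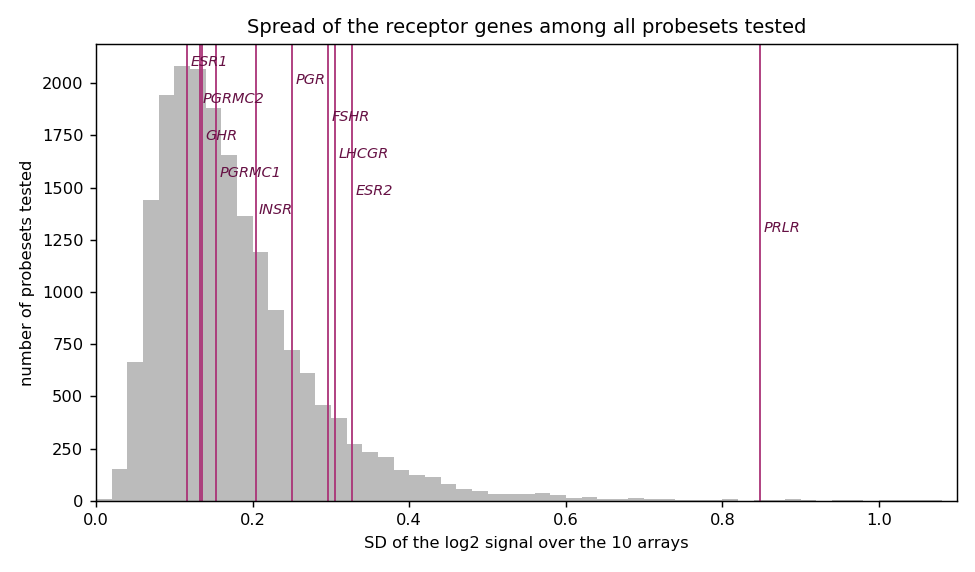
Number of probesets (vertical axis) by the SD of their log2 signal over the 10 arrays (horizontal axis), with a line at the SD of each receptor gene. PRLR at 0.85 lies far beyond the bulk of the probesets, LHCGR, FSHR and ESR2 near 0.3, and ESR1 at 0.12 below the median of 0.15.

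GHR, the growth hormone receptor and the structural relative of PRLR, spread far less than PRLR. Its SD over the 10 arrays was 0.14, against a median of 0.11 for probesets within 0.5 log2 of it. It ran from 8.65 to 9.03 in ISe, with a median of 8.99, and from 8.75 to 9.03 in MIX, with a median of 8.85. The log2 difference was -0.0074 ± 0.089 (SE), and the 95% interval of the fold change was 0.87 to 1.14. INSR, which takes up the insulin signal, ran from 8.46 to 9.07 in ISe and from 8.54 to 8.97 in MIX, with a log2 difference of -0.05 ± 0.12 (SE). ISe 6 was the lowest array for PRLR, GHR, PGRMC1 and INSR.

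ESR1, the estrogen receptor alpha, was the least variable of the 10 genes, with an SD over the arrays of 0.12. Its ISe values ran from 7.72 to 7.84 and its MIX values from 7.55 in MIX 1 to 7.97 in MIX 8, so that the MIX glands enclosed all ISe glands. The log2 difference was 0.03 ± 0.08 (SE). The dimmer probeset of ESR1 averaged 5.82 ± 0.29 (SD, n = 5) over MIX and 5.89 ± 0.08 (SD, n = 5) over ISe, a difference of -0.07 ± 0.12 (SE). Both probesets were lowest in MIX 1, but the brighter one was highest in MIX 8 and the dimmer one in MIX 9. Across the 10 arrays they had a Pearson r of 0.43 (permutation p = 0.203, adjusted over 2 genes 0.407) and a Spearman rho of 0.14 (permutation p = 0.704, adjusted 0.731). Without MIX 1 and MIX 8 r was 0.66. The dimmer probeset had an SD over the 10 arrays of 0.20, so the low spread of ESR1 is that of the brighter one.

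ESR2, the estrogen receptor beta, was dim at 5.22 and below the array medians. Its values lay between 5.10 and 5.22 in 4 ISe glands and at 5.74 in ISe 3. In MIX it ran from 4.62 in MIX 10 to 5.76 in MIX 9, with a median of 5.13. The log2 difference was -0.11 ± 0.19 (SE). At such levels background makes up much of a signal, which weakens what the intervals of FSHR and ESR2 say of the transcript.

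PGR, the nuclear receptor for progesterone, was low in 1 gland. In ISe it read 7.30 in ISe 2, 7.21 in ISe 3, 7.11 in ISe 5, 7.08 in ISe 6 and 7.19 in ISe 7. In MIX it read 7.01 in MIX 1, 6.46 in MIX 8, 7.22 in MIX 9, 7.00 in MIX 10 and 7.35 in MIX 11. The ISe glands lay close together, and 3 MIX glands lay below all of them, MIX 8 by the widest margin. MIX averaged 7.01 ± 0.34 (SD, n = 5) and ISe 7.18 ± 0.09 (SD, n = 5), a log2 difference of -0.17 ± 0.14 (SE) with an unadjusted limma p of 0.258. Without MIX 8 the difference was -0.03, and without MIX 1 and MIX 8 together it was 0.01. The dimmer probeset of PGR lay as low as FSHR and ESR2, at 5.08, and says little about the drop in MIX 8. There MIX 8 was at 4.93, the lowest array was ISe 2 at 4.67, and the difference was 0.0073 ± 0.13 (SE). Across the 10 arrays the 2 PGR probesets had a Pearson r of 0.11 (permutation p = 0.725, adjusted over 2 genes 0.725) and a Spearman rho of 0.13 (permutation p = 0.731, adjusted 0.731), and r was -0.18 without MIX 8 and MIX 11.

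PGRMC1 and PGRMC2, the membrane-associated progesterone receptor components, were bright, above 96.7% and 96.1% of the probesets tested. Their SDs over the 10 arrays, 0.15 and 0.13, were somewhat above the median SDs of probesets within 0.5 log2 of them, which were 0.104 and 0.105. PGRMC1 ran from 9.87 to 10.33 in ISe and from 10.07 to 10.40 in MIX, and its log2 difference was 0.08 ± 0.10 (SE). PGRMC2 ran from 9.88 to 10.08 in ISe and from 9.84 to 10.28 in MIX, with a log2 difference of 0.08 ± 0.08 (SE). Their 95% intervals of the fold change were 0.92 to 1.22 and 0.93 to 1.201. MIX 1 was the highest array for both. Without MIX 1 and MIX 8 together, the difference of PGRMC2 was -0.02.

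**Figure D3:**
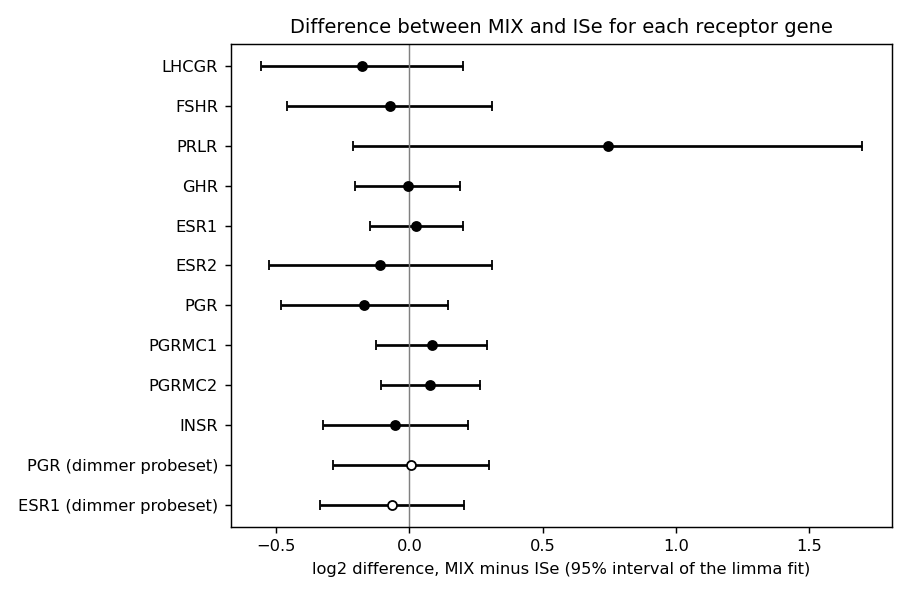
Log2 difference between MIX and ISe (horizontal axis, MIX minus ISe) for the 10 receptor genes and, as open circles, the dimmer probesets of PGR and ESR1. Bars are 95% intervals of the limma fit with 5 arrays per group, and all 12 of them include 0.

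Whether the receptors varied together was asked over the 45 pairs of members. No pair passed after adjustment over the 45, by Pearson r (smallest adjusted p = 0.141) or Spearman rho (smallest adjusted p = 0.557), in permutation tests with 100000 resamples, and 2 pairs had an unadjusted Pearson p under 0.05. The closest pair was GHR and PGRMC1, with r = 0.82 over 10 arrays (permutation p = 0.00313, adjusted 0.141) and rho = 0.74 (permutation p = 0.0173, adjusted 0.557). Without ISe 6 and MIX 10, the arrays farthest from the median of GHR, r was 0.77, and it was 0.86 for deviations from the group means. Over the 5 ISe arrays r was 0.97 for GHR and PGRMC1, 0.99 for PGRMC1 and INSR and 0.999 for PRLR and PGR. Over the 5 MIX arrays these were 0.63, -0.20 and -0.32. These pairs are among the highest of the 45 in ISe, and no adjustment was made for that choice. The ISe values of PGR spanned only 0.22 log2. Other pairs were close in MIX and not in ISe. FSHR and ESR2 had r = 0.98 in MIX and -0.06 in ISe, and PRLR and INSR had -0.95 and 0.19. Whether the groups differ in such coefficients was not tested. In ISe, GHR and PGRMC1 ranked the glands in the same order, from 8.65 and 9.87 in ISe 6 to 9.03 and 10.33 in ISe 5. INSR ranked the ISe glands in that order too, from 8.46 to 9.07, so it is not particular to GHR and PGRMC1. In MIX the orders of GHR and PGRMC1 differed, with GHR lowest in MIX 10 at 8.75 and PGRMC1 lowest in MIX 8 at 10.07. LHCGR and INSR had r = 0.67 (permutation p = 0.0365, adjusted 0.68) and rho = 0.58 (permutation p = 0.0867, adjusted 0.557), with r = 0.61 without ISe 2 and MIX 8.

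The genes of most similar profile were sought for the 3 members that were brighter than the median probeset and in the upper 25% of SD over the arrays, which were LHCGR, PRLR and PGR. Each was set against 8840 other genes brighter than the median, and the 3 with the highest Pearson r over the 10 arrays are named; chosen as the highest of so many, these coefficients are a description. For LHCGR they were SEPTIN11, a cytoskeletal septin (r = 0.95, rho = 0.95), RAB8B, a small GTPase of vesicle transport (r = 0.94, rho = 0.84), and SLC25A6, a mitochondrial ADP/ATP carrier (r = 0.92, rho = 0.95). SEPTIN11 moved over a much narrower range than LHCGR, from 8.41 to 8.67. Without MIX 8 the 3 coefficients were 0.95, 0.93 and 0.92.

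For PRLR the genes were PTPRA, a receptor-type tyrosine phosphatase (r = 0.93, rho = 0.94), S100B, a calcium-binding protein (r = 0.93, rho = 0.88), and OGA, the enzyme that removes O-linked N-acetylglucosamine (r = 0.88, rho = 0.78). Their ranges were small beside the 2.54 log2 of PRLR, from 8.70 to 8.81 for PTPRA, from 9.14 to 9.70 for S100B and from 9.16 to 9.40 for OGA. The coefficients were 0.91, 0.93 and 0.81 without MIX 1 and MIX 8, the arrays farthest from the PRLR median.

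For PGR the genes were PRR13 (r = 0.96, rho = 0.84), UQCRB, a subunit of respiratory complex III (r = 0.95, rho = 0.78), and DPH6, an enzyme of diphthamide synthesis (r = 0.95, rho = 0.88). Here 1 gland set much of the likeness, since PGR and these 3 genes were all lowest in MIX 8. Without that array the coefficients were 0.79, 0.77 and 0.80.

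**Figure D4:**
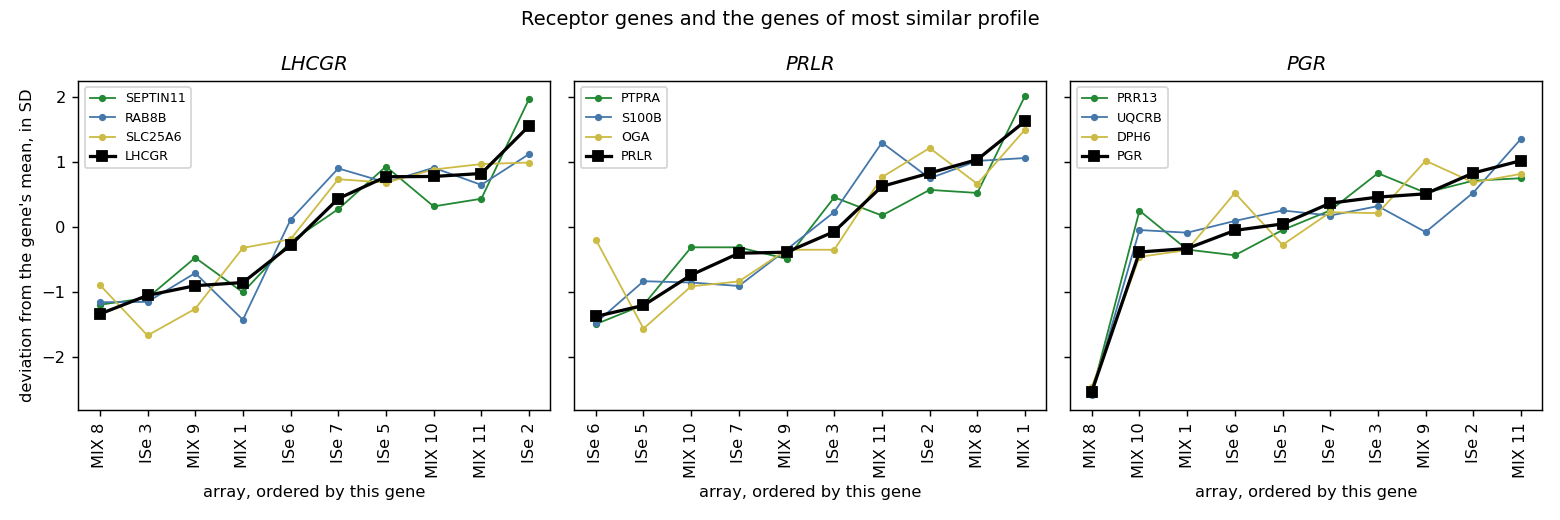
Deviation of each gene from its own mean in units of its SD over the 10 arrays (vertical axis), for LHCGR, PRLR and PGR (black) and the 3 genes of most similar profile (colours), with the arrays ordered by the receptor gene (horizontal axis). The receptor gene rises in each panel because of this ordering. PGR and its 3 genes share a low point in MIX 8.

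Partners and targets of the receptors were examined as 5 lists. None of their genes passed an adjusted p of 0.05 over all probesets, and the medians of the lists, from -0.0035 to 0.02 log2, lay close to that of all probesets (0.001). For the gonadotropin receptors, 2 of 25 coupling genes had an unadjusted p under 0.05, both higher in MIX, against 2.67% of all probesets in that direction. They were the 2 beta-arrestins, which bind activated G protein-coupled receptors, LHCGR among them, and end their signal. ARRB2 read 7.10, 7.04, 7.03, 7.18 and 6.86 in MIX 1, 8, 9, 10 and 11, and 6.59, 6.69, 6.59, 6.84 and 6.59 in ISe 2, 3, 5, 6 and 7. The groups of ARRB2 did not overlap, with MIX 11 just above ISe 6, as was so with MIX higher for 0.366% of all probesets. Its log2 difference was 0.38 ± 0.08 (SE), with an unadjusted limma p of 3.63e-04 and an adjusted p of 0.882.

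ARRB1 averaged 8.10 ± 0.16 (SD, n = 5) over MIX and 7.82 ± 0.17 (SD, n = 5) over ISe. Its groups did not overlap either, from 7.99 upward in MIX and up to 7.96 in ISe, with a log2 difference of 0.28 ± 0.10 (SE) and an adjusted limma p of 0.941. In the same glands macrophage markers, a list chosen with their level in these samples known, were higher in MIX: 11 of 11 measured had an unadjusted limma p under 0.05 in that direction and 0 an adjusted one, and their average level ran from 7.17 to 7.49 in MIX and from 6.57 to 7.12 in ISe. T and NK cell markers had a higher mean in MIX for 10 of 12 genes (2 at an unadjusted p under 0.05), with an average level of 5.39 to 5.75 in MIX and 5.27 to 5.55 in ISe. Endothelial markers did so for 12 of 12 (1 at an unadjusted p under 0.05), with averages of 8.80 to 9.08 and 8.69 to 9.00. Over all probesets, 50.4% had a higher mean in MIX, and 2.67% had an unadjusted p under 0.05 in that direction. The other marker lists were mixed. Means were higher in MIX for 4 of 9 steroidogenic, 3 of 9 follicle, 5 of 8 pericyte and smooth muscle, 2 of 8 fibroblast and 3 of 7 epithelial markers. Arrestins are also made by leukocytes, and the part of these cell types in the arrestin differences was not tested. The G protein subunit GNAS, which couples LHCGR to adenylyl cyclase, stood at 12.20 (MIX) and 12.23 (ISe), and ADCY6 and ADCY7, adenylyl cyclases, were at 0.13 ± 0.08 and 0.22 ± 0.14 (log2 difference ± SE).

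Of 23 genes of prolactin and growth hormone signalling, 2 had an unadjusted p under 0.05, both higher in MIX, against 2.67% of all probesets in that direction. IGF1, the growth factor that growth hormone induces in liver, read 7.84, 7.81, 7.32, 7.03 and 7.41 in MIX 1, 8, 9, 10 and 11, and 6.69, 7.66, 6.89, 7.13 and 6.35 in ISe 2, 3, 5, 6 and 7. The groups of IGF1 overlapped, since ISe 3 lay above 3 MIX glands. Its log2 difference was 0.54 ± 0.23 (SE) with an adjusted limma p of 0.941. STAT5B, a transcription factor that PRLR and GHR activate, averaged 7.22 ± 0.20 (SD, n = 5) over MIX and 7.01 ± 0.07 (SD, n = 5) over ISe, with its highest value of 7.56 in MIX 8. The count was 0 without MIX 1, without ISe 5 or without MIX 1 and MIX 8 together, and 1 without ISe 6, ISe 7, MIX 8, MIX 10 or MIX 11. It was also 0 without moderation and 1 with array quality weights or quantile normalisation. Macrophages also make IGF1, and the part of their higher marker level in MIX was not tested. PTPN6 and SOCS1, which restrain cytokine receptor signals, were at 0.23 ± 0.14 and -0.18 ± 0.12 (log2 difference ± SE).

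The hormones themselves gave dim signals, with PRL at 4.58 in MIX and 4.66 in ISe and GH1 at 4.95 and 5.02. Of 20 partners and targets of the estrogen receptors, HSD17B1, which reduces estrone to estradiol, was lower in MIX at -0.25 ± 0.09 and STS, steroid sulfatase, higher at 0.22 ± 0.10 (log2 difference ± SE), each with an unadjusted p under 0.05 (2.12% of all probesets passed it with MIX lower) and an adjusted limma p of 0.941. Both lay below the array medians, at 5.02 and 4.70 in MIX. XBP1 and PDZK1, targets of estrogen receptors in other tissues, were at -0.10 ± 0.07 and 0.10 ± 0.09. This count of 2 was 1 with any single array left out other than ISe 3, MIX 10 or MIX 11. It was also 1 without the dimmest 25% of probesets, with all probesets, with a trended prior variance, without moderation or with array quality weights, and 0 without the dimmest 50%.

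Of 21 partners and targets of the progesterone receptor, 0 had an unadjusted p under 0.05. The smallest p-values were those of RUNX1 (0.12 ± 0.07), FKBP4, a co-chaperone of steroid receptors (0.08 ± 0.06), PAQR6, a membrane progestin receptor (-0.08 ± 0.06), and NENF, a relative of the PGRMC proteins (-0.09 ± 0.08, log2 difference ± SE). Of 25 genes of insulin receptor signalling, only SLC2A1, the glucose transporter GLUT1, had an unadjusted p under 0.05, a share close to the 4.79% of all probesets. It averaged 9.26 ± 0.12 (SD, n = 5) over MIX and 9.05 ± 0.09 (SD, n = 5) over ISe. The groups of SLC2A1 did not overlap, as for 0.366% of all probesets with MIX higher, and MIX 11 at 9.13 lay just above ISe 7 at 9.12. GRB14, an adaptor that inhibits the insulin receptor, was at -0.18 ± 0.10, and PIK3R2 and PIK3CA, subunits of phosphoinositide 3-kinase, were at -0.16 ± 0.10 and 0.12 ± 0.07 (log2 difference ± SE). The count of 1 in this list became 2 when MIX 1 was left out and 3 when MIX 8 was left out as well.

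**Figure D5:**
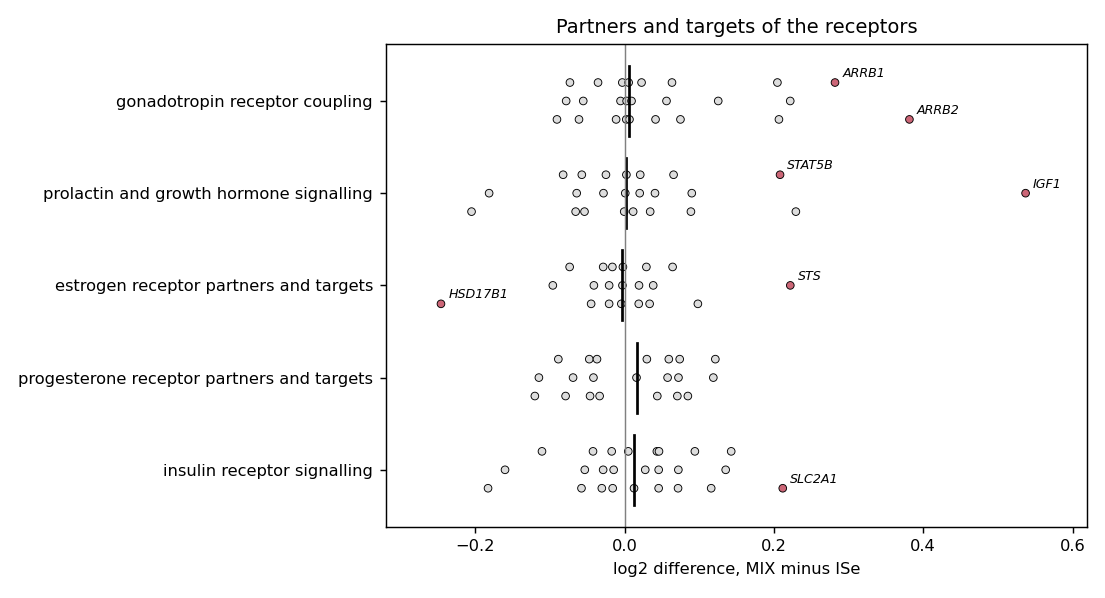
Log2 difference between MIX and ISe (horizontal axis, MIX minus ISe) of each measured gene in the 5 lists of receptor partners and targets. Coloured points have an unadjusted limma p under 0.05 and bars are list medians, which run from -0.0035 to 0.02.

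Each receptor was also compared with the genes of its own list across the 10 arrays, as 224 relations. After adjustment 0 passed by Pearson r and 0 by Spearman rho, and 15 had an unadjusted Pearson p under 0.05. The closest was PGRMC1 with NR3C1, the glucocorticoid receptor, with r = 0.91 (permutation p = 4.20e-04, adjusted 0.0941) and rho = 0.81 (permutation p = 0.0061, adjusted 0.829), and r = 0.74 without ISe 6 and MIX 1. Against the average level of 8 lists of cell type markers, 80 relations, 0 passed by either coefficient, with a smallest adjusted p of 0.266 by Pearson r. Of the 8 with an unadjusted Pearson p under 0.05, the closest were PGRMC2 with markers of epithelium and of the follicle. Epithelial markers were as dim as FSHR and ESR2, with an average of 4.89 to 5.24 in MIX and 4.92 to 5.28 in ISe. Of these markers 0 of 7 lay above the median probeset, which limits what their relation says. For epithelium r was -0.80 (permutation p = 0.00408, adjusted 0.266), rho -0.77 (permutation p = 0.0125, adjusted 0.496), and r without MIX 1 and MIX 10 -0.66. For the follicle r was -0.79 (permutation p = 0.00665, adjusted 0.266), rho -0.76 (permutation p = 0.0159, adjusted 0.496), and r without the same arrays -0.50. The follicle average is an unscaled mean, in which INSL3 varied most, with an SD of 1.72 in MIX and 0.85 in ISe. The part of INSL3 in the relations with follicle markers was not tested. LHCGR had r = 0.67 with follicle markers (permutation p = 0.0341, adjusted 0.474) and rho = 0.65 (permutation p = 0.0486, adjusted 0.528), and r was 0.65 without ISe 2 and MIX 8. With macrophage markers LHCGR had r = -0.65 (permutation p = 0.0449, adjusted 0.476) and rho = -0.49 (permutation p = 0.156, adjusted 0.734), and r was -0.33 without those arrays. LHCGR had r = 0.66 with markers of steroidogenic luteal cells (permutation p = 0.0356, adjusted 0.474) and rho = 0.64 (permutation p = 0.0542, adjusted 0.528), and r was 0.28 without ISe 2 and MIX 8. The other 3 were PGRMC2 (r = -0.68) and PGR (r = 0.69) with luteal cell markers and PGR with markers of pericytes and smooth muscle (r = -0.60). Their adjusted permutation p-values were 0.474 to 0.476 by Pearson r. PRLR was not among the 8.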

How the data were processed

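Total RNA of 10 bovine corpora lutea (5 MIX, 5 ISe) was hybridised to single-colour Affymetrix arrays after TRIzol extraction and biotin labelling, per the labels' protocols. The authors deposited log2 signals per probeset, from 0.54 to 14.17. The submitters' processing notes name GCOS 1.2 and Partek without a role; how background was corrected and probes were summarised and normalised is not stated there. Signals were used as deposited. Of the probesets tested, 41.6% hold an equal value on 2 or more arrays (among the members, PGRMC1).

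Gene names came from the platform annotation: 18457 probesets have 1 symbol, 688 several and 7628 none. The 19145 with a symbol entered the test, and those with several name no gene here. Current Entrez identifiers matched 9 of the 10 members, with 0 changed symbols, and the identifier of PGR found no match. The table gives no build, and the number of arrays limits the precision.

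MIX was compared with ISe by lmFit and eBayes (limma 3.58.1, R 4.3.3), two-sided, with a threshold of 0.05 and checks on simulated data. Correlations used permutation tests in Python 3.11.15 (numpy 2.4.6), and figures matplotlib 3.10.9. Members and lists were chosen with earlier results of these data known. The genes named in each list are those with the smallest unadjusted p, up to 4; GNAS, PRL, GH1, NR3C1, CYP11A1, OXT and CYP19A1 are exceptions picked with their values in view, as were the relations with lists and leaving out MIX 1 and MIX 8 together. The other alternatives were normalisations, probeset filters, moderations, array weights, averaged probesets and each array left out.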

Additional observations from a re-analysis of the deposited data

Results flagged for a closer look

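The ESR2 value of ISe 3, 5.74, lay far from the other 4 ISe glands, which were between 5.10 and 5.22. Its gap was 0.814 of the group's range, above Dixon's 95% critical value of 0.71 for 5 samples. This was 1 of 20 combinations of gene and group examined, and chance gives about 1. MIX 9 had a similar ESR2 value of 5.76.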

How the results depend on the processing

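The number of arrays, and for FSHR and ESR2 a signal below the array medians, limit these results. No receptor gene passed the adjusted threshold under any alternative run. With 1 array left out, the count of probesets called ran from 0 to 1 (1 without MIX 8), the count of receptor genes at an unadjusted p under 0.05 from 0 to 1 (PRLR, without ISe 2 or MIX 10), and their median log2 difference from -0.096 to 0.03. Directions near 0 turned: over these settings the log2 difference ran from -0.165 to 0.068 for FSHR, -0.070 to 0.028 for GHR, -0.017 to 0.089 for ESR1, -0.259 to 0.026 for ESR2 and -0.135 to 0.017 for INSR. GHR was also at 0.015 with array quality weights and ESR1 at -0.020 with averaged probesets. Without MIX 1 and MIX 8 together PGR was at 0.013, PGRMC2 at -0.021 and INSR at 0.064. The cause was not tested. LHCGR, PRLR and PGRMC1 kept their direction under all alternatives run, but not their size. LHCGR ran from -0.28 without ISe 3 to -0.016, close to 0, without MIX 1 and MIX 8 together. PRLR ran from 0.24 without MIX 1 and MIX 8 together to 1.01 without ISe 2, and PGRMC1 was at 0.019 without ISe 6. FSHR and ESR2 fall out without the dimmest 50% of probesets. No paired analysis was made because the labels give no pairing. The sample numbers run once through the series, with ISe from 2 to 7 and MIX at 1 and from 8 to 11. Whether they follow an order of collection or processing is not stated.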
